A study of Mus musculus with 6 samples.

Results

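The insulin-like growth factor 1 (IGF1) axis was examined in endothelial cells (EC), the cells that line blood vessels, sorted from mouse lung at 2 ages. The genes were the ligand Igf1, its receptor Igf1r and the IGF binding proteins Igfbp2 to Igfbp7, 8 genes taken by symbol. The table analysed here held a row for 7 of them among 12623 genes. Igfbp2 had no row and was not analysed here. All 7 passed the filter on low values and entered the test.

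IGF1 is a secreted growth factor, made in liver and locally by connective tissue cells. It binds the receptor tyrosine kinase IGF1R, which signals through insulin receptor substrate (IRS) adaptors to the PI3K, AKT and mTOR kinases and through RAS to ERK. In tissue fluid most IGF is held by IGF binding proteins, which prolong its life and either keep it from the receptor or bring it close to the cell surface. IGFBP7 differs from the others in its weak affinity for IGF and is a known secreted product of vascular endothelium.

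The 3 infant and 3 young adult libraries were made from lungs of C57BL/6N mice with no genetic change or treatment. Cells positive for CD31 and CD34 and negative for PTPRC, LYVE1, PDPN and LY76 were sorted, so that leukocytes, lymphatic EC and red cells were to be left out. The study's methods name female mice and do not say how many animals went into a library. All levels below are RPKM, read counts scaled by transcript length and by the mapped reads of the library, so that levels of different genes can be compared within a library. Where 3 values of a group stand together, they are those of replicates 1 to 3 in that order.

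The libraries differed in more than age. Across genes infant replicate 2 correlated with infant replicates 1 and 3 at 0.963 and 0.964, whereas these correlated with each other at 0.987. The 11 endothelial markers (1 called higher, Tek) summed to between 3370 and 4846 RPKM in infant and between 5019 and 5475 RPKM in the young adult group. Of the 11, 8 had a log2 difference above 0 and 3 below 0. Among the latter was the sorting antigen gene Cd34, with means of 457.6 RPKM in infant and 295.8 RPKM in the young adult group. Markers of fibroblasts (9 genes, 8 called lower) summed to 1267.7, 318.7 and 877.1 RPKM in the infant group and to between 8.8 and 21.3 RPKM in the young adult group, and those of mural cells (10 genes, 9 called lower) to 236.8, 69.7 and 237.3 RPKM against between 12 and 15.7 RPKM. No fibroblast or mural marker was listed at 0 in all young adult libraries. Erythroid markers (7 of 7 called lower) summed to between 9656 and 79864 RPKM in infant and to at most 1351 RPKM in the young adult group. Of 8 epithelial markers tested 4 were called lower, and of 7 leukocyte markers 2, with every log2 difference in both lists below 0. Their sums overlapped between the groups. Epithelial markers summed to 6392 to 11186 RPKM in infant and 1763 to 8174 RPKM in young adult libraries, and leukocyte markers to 309.7 to 502.4 RPKM and 138.5 to 544.6 RPKM. Of 3 lymphatic endothelial markers tested, 1 was called higher, Lyve1, although cells were sorted as negative for LYVE1. Its transcript measured 68.6, 171.4 and 82.7 RPKM in the infant group and 396.4, 307.9 and 252.9 RPKM in the young adult group. The Y-linked gene Ddx3y measured 20.6, 16.5 and 21.9 RPKM in the infant group and 0.0 RPKM in all young adult libraries, while Xist, which is transcribed from the inactive X chromosome, measured 8.17 ± 0.551 and 13.8 ± 1.59 RPKM (SD, n = 3 each). Thus male cells were part of every infant library, and sex and age cannot be told apart in any comparison below.

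Of the 7 genes tested, Igf1 and Igfbp5 fell with age, and Igf1r, Igfbp3, Igfbp4, Igfbp6 and Igfbp7 did not pass the test. A gene was called when its limma adjusted p was under 0.05 and its change exceeded 1.75-fold on the log2(RPKM + 1) scale. This held for 2 of the 7 genes, both lower, against 11.4% of the 12458 genes tested in either direction, 8.1% called lower and 3.33% called higher. The median log2 difference was -0.09 over the 7 genes and -0.07 over all genes tested. In bulk libraries, fewer cells of a type and less RNA per cell cannot be told apart.

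Igf1 (chromosome 10, 87858265 to 87937047 in GRCm38), the ligand of the axis, measured 18.1, 4.3 and 15.8 RPKM in the infant group and 0.2, 0.5 and 0.4 RPKM in the young adult group. The groups did not overlap, and infant replicate 2 was the lowest of the infant libraries. Non-overlap was found in 43.4% of all genes tested. Mean levels were 12.7 ± 7.39 and 0.367 ± 0.153 RPKM (SD, n = 3 each), a ratio of 34.7 that rests on young adult levels a few rounding steps above 0. On the log2(RPKM + 1) scale the difference was -3.13 with a standard error of 0.44 (limma adjusted p 0.00395). It was called in each of the 6 fits that left out 1 library, ranging from -3.72 without infant replicate 2 to -2.79 without infant replicate 1.

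**Figure D1:**
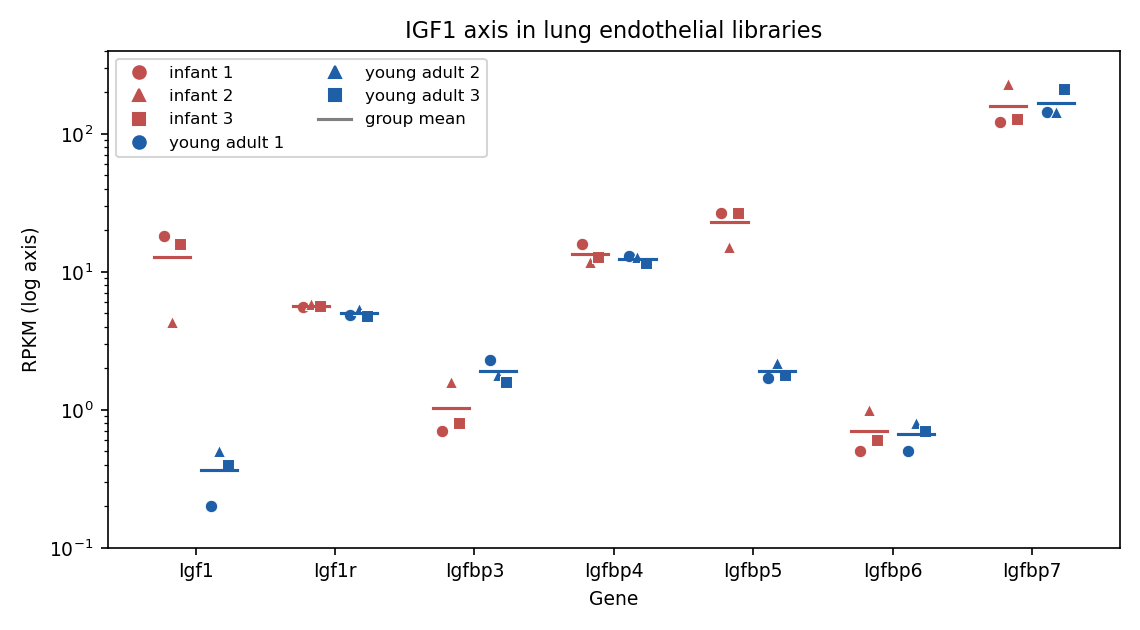
RPKM (log axis) of the 7 genes in each of the 6 libraries, infant in red and young adult in blue, with the replicate given by the marker and the group mean by the bar. Igf1 and Igfbp5 are separated by age, with Igf1 at 4.3 RPKM or more in the infant group and 0.5 RPKM or less in young adult libraries, whereas Igfbp4, Igfbp6 and Igfbp7 overlap.

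Igf1 had 5 transcript rows. The mouse gene is read from alternative leader exons and spliced in more than 1 way before its last exon, so that the mature growth factor is joined to different C-terminal E peptides. Of the rows, 4 matched a GENCODE M21 transcript, and 2 of these (NM_001111274 and NM_010512) contain a coding exon of 52 bases that the other 2 (NM_001111275 and NM_001111276) skip. Its length is not a multiple of 3, so that it shifts the reading frame of what follows. The exon is shown in capitals, on the plus strand at chr10:87915298-87915349 in GRCm38, between 15 bases of each neighbouring exon, because it is the sequence by which these rows differ in the E peptide.

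Igf1 exon: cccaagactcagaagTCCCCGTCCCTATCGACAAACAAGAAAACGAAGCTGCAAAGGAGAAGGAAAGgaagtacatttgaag

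Rows with and without this exon had nearly the same levels. NM_010512, with it, measured 18.0, 4.3 and 15.7 RPKM in the infant group, and NM_001111275, without it, 18.1, 4.3 and 15.8 RPKM. In young adult libraries all 4 matched rows measured 0.2, 0.5 and 0.4 RPKM. Since the rows share most of their exons, the level of each splice form cannot be read from them. The row NM_184052 was lower, at 10.6, 3.1 and 10.1 RPKM in the infant group and 0.1, 0.6 and 0.6 RPKM in the young adult group. Tested as features of their own, the 5 rows had log2 differences between -3.13 and -2.52, with limma adjusted p of at most 0.00531.

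Igf1r (chromosome 7, 67952257 to 68233668), the receptor for the ligand, was nearly level. It measured 5.6, 5.8 and 5.7 RPKM in the infant group and 4.9, 5.4 and 4.8 RPKM in the young adult group. Although the groups did not overlap, the log2 difference was -0.15 ± 0.09 (SE) with a 95% interval from -0.36 to 0.06 and a limma adjusted p of 0.249. Expressed as a fold on the same scale, the interval ran from 0.776 to 1.04. The level of Igf1 over that of Igf1r was 3.23, 0.741 and 2.77 in the infant group and 0.0408, 0.0926 and 0.0833 in the young adult group. Thus the ligand transcript exceeded the receptor transcript in infant replicates 1 and 3 only.

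Igfbp5 (chromosome 1, 72858065 to 72874865) encodes a binding protein that also attaches to extracellular matrix. In the genome it lies beside Igfbp2, which had no row. Igfbp5 measured 26.7, 15.1 and 26.6 RPKM in the infant group and 1.7, 2.2 and 1.8 RPKM in the young adult group. The groups did not overlap, the lowest infant library being replicate 2. The mean fell from 22.8 ± 6.67 to 1.9 ± 0.265 RPKM (SD, n = 3 each), a ratio of 12 between infant and young adult. Its log2 difference of -3.00 ± 0.21 (SE) had a limma adjusted p of 0.000476, and it was called in each of the 6 fits without 1 library, between -3.26 and -2.87.

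The 250 bases before the Igfbp5 start, on the minus strand at chr1:72874866-72875115 in RefSeq's GRCm38.p6, are given because this gene had the smallest adjusted p of the 7 in the comparison of ages. Short promoter motifs were searched on both strands, in this window and in the 32851 RefSeq windows of the same length. The TATA box letters TATAAA had no match here and are present in 12.4% of all windows. The CCAAT box also had no match and is present in 33.8%. The GC box letters GGGCGG had no match either and are present in 32.7%. After reading the sequence, TATTTAA was searched as well, and it is shown in capitals. It starts 51 bases before the gene start and is present in 4.18% of the windows. A match of letters is a description and not evidence of a bound factor.

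Igfbp5 promoter: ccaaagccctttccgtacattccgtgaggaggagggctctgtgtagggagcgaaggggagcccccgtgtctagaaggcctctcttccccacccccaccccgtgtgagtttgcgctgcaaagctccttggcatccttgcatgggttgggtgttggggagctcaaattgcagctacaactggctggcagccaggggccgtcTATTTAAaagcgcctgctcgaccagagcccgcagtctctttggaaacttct

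Igf1 and Igfbp5 were both lowest in replicate 2 among the infant libraries. In that library Igf1 was at 25.4% and Igfbp5 at 56.7% of the mean of infant replicates 1 and 3. The summed fibroblast markers were at 29.7% and the mural markers at 29.4% in the same comparison. Single markers differed from these sums. The fibroblast markers Dcn (7.6, 19.9 and 8.0 RPKM in the infant group) and Lum (4.1, 14.4 and 4.7 RPKM) were highest in infant replicate 2. Relative to infant replicate 2 alone, the young adult mean was 8.53% for Igf1, 12.6% for Igfbp5, 5.24% for fibroblast markers and 20.4% for mural markers. The part of fibroblast and mural RNA in the fall of these 2 genes was not tested.

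**Figure D2:**
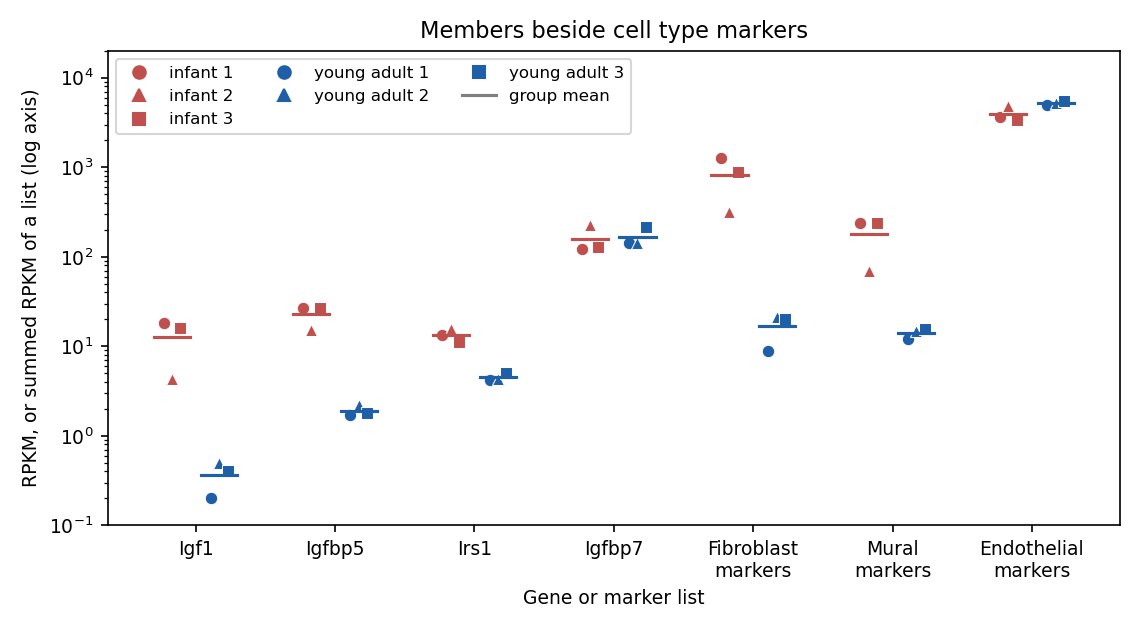
RPKM of Igf1, Igfbp5, Irs1 and Igfbp7 beside the summed RPKM of 9 fibroblast, 10 mural and 11 endothelial markers (log axis), with 1 point per library and a bar at the group mean. Infant replicate 2 (red triangle) is the lowest infant library for Igf1, Igfbp5 and both stromal lists, but the highest for Irs1, Igfbp7 and the endothelial list.

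To describe which genes followed the same pattern, genes with a mean of at least 5 RPKM (6979 genes) were ranked by the root mean square difference of their centred log2(RPKM + 1) values over the 6 libraries. Nearest to Igf1 were Lpar1, which encodes a lysophosphatidate receptor (0.086), Pamr1 (0.089) and the collagen VI gene Col6a3 (0.092). Lpar1 measured 15.4, 3.8 and 13.7 RPKM in the infant group and 0.2, 0.4 and 0.4 RPKM in the young adult group. Igfbp5 was nearest to the endothelin receptor gene Ednra (0.15), the matrix protein gene Dpt (0.18) and Gucy1a3 (0.19), a subunit of the nitric oxide receptor guanylate cyclase. Ednra measured 18.3, 7.4 and 18.6 RPKM in the infant group and 0.9, 1.1 and 0.8 RPKM in the young adult group.

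Igfbp7 (chromosome 5, 77349240 to 77408045) was by far the most abundant transcript of the group in every library. It measured 121.6, 228.0 and 128.7 RPKM in the infant group and 144.2, 143.4 and 212.3 RPKM in the young adult group. The groups overlapped widely, and infant replicate 2 and young adult replicate 3 stood above the other libraries. The log2 difference was 0.10 ± 0.27 (SE), with a 95% interval from -0.52 to 0.72 and a limma adjusted p of 0.812, so that changes of up to 1.65-fold upwards or to 0.697 of the infant level lay within the interval. Its sign changed when libraries were rescaled without globin genes (-0.01) or quantile normalized (-0.01). The same 2 libraries also held the highest summed epithelial markers of their age group, 11186 RPKM in infant replicate 2 and 8174 RPKM in young adult replicate 3, and the highest leukocyte markers, 502.4 and 544.6 RPKM. Their summed endothelial markers were likewise the highest of each age group, 4846 and 5475 RPKM. The part of any of these cell types in the level of Igfbp7 was not tested.

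The 2 transcript rows of Igfbp7 differ by a coding exon of 93 bases, a multiple of 3, which NM_001159518 contains and NM_008048 lacks. It is printed in capitals between 15 bases of each neighbouring exon, on the minus strand at chr5:77401487-77401579 in GRCm38, because it is the difference between the 2 annotated proteins.

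Igfbp7 exon: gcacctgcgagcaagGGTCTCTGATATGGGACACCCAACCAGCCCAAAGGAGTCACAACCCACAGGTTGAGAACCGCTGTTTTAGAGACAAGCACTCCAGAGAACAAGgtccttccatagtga

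NM_001159518 measured 112.3, 210.6 and 118.9 RPKM in the infant group and 133.2, 132.4 and 196.0 RPKM in the young adult group, below NM_008048 in all 6. Both rows had a log2 difference of 0.10. As for Igf1, shared exons keep the levels of the forms from being separated.

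Igfbp4 (chromosome 11, 99040005 to 99052655), whose protein holds IGF until it is cleaved by the pappalysin proteases, did not pass the test. It measured 15.9, 11.7 and 12.8 RPKM in the infant group and 13.0, 12.9 and 11.5 RPKM in the young adult group. The values overlapped, and the log2 difference was -0.09 ± 0.13 (SE) with a 95% interval from -0.39 to 0.20 (limma adjusted p 0.606). Rescaling to the median of all genes turned its sign (0.04).

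Igfbp3 (chromosome 11, 7206086 to 7215498), whose protein carries most IGF in blood, was the single gene of the group with an interval above 0. It measured 0.7, 1.6 and 0.8 RPKM in the infant group and 2.3, 1.8 and 1.6 RPKM in the young adult group. Infant replicate 2 was level with young adult replicate 3, so that the groups touched. Means were 1.03 ± 0.493 and 1.9 ± 0.361 RPKM, a ratio of 1.84. The log2 difference of 0.53 ± 0.19 (SE) had a 95% interval from 0.09 to 0.98, and its limma adjusted p of 0.079 missed the threshold. It was called under quantile normalization (0.89, limma adjusted p 0.0384). Without infant replicate 2 the difference was 0.72 (limma adjusted p 0.00676, with a range up to 0.22 over all alternatives), under the fold threshold. At these levels 1 rounding step of the table is 0.1 RPKM.

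Igfbp6 (chromosome 15, 102144186 to 102149512), which encodes a binding protein that prefers IGF2, was near the lower end of the table. Its values were 0.5, 1.0 and 0.6 RPKM in the infant group and 0.5, 0.8 and 0.7 RPKM in the young adult group. It passed the filter through infant replicate 2 alone. The groups overlapped, with a log2 difference of -0.02 ± 0.17 (SE) and a 95% interval from -0.41 to 0.36 (limma adjusted p 0.938). The sign turned under quantile normalization (0.40) and under rescaling to the median (0.03).

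**Figure D3:**
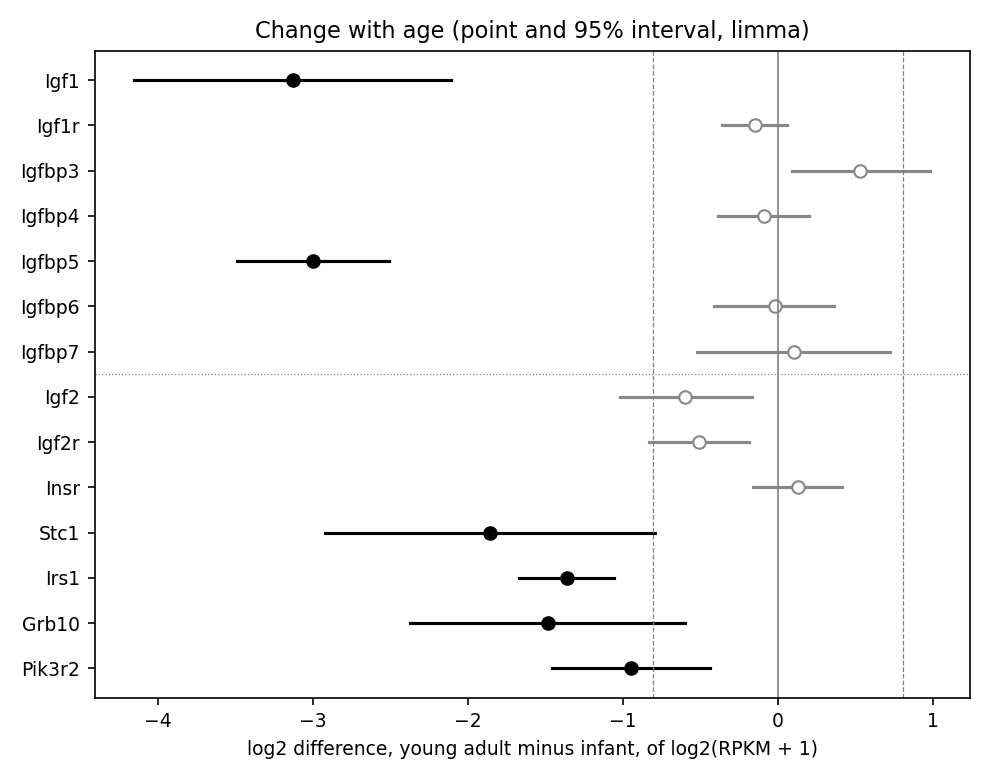
Log2 difference between young adult and infant libraries on the log2(RPKM + 1) scale for the 7 genes of the axis (above the dotted line) and 7 further pathway genes, as the estimate with its 95% interval from limma. Filled points passed the test, and dashed lines mark the 1.75-fold threshold, which Igf1 (-3.13) and Igfbp5 (-3.00) exceed by most.

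Igf1r lay nearest to Matr3 (0.024), Riok3 (0.033) and Commd8 (0.034), Igfbp4 to Ubr1 (0.04), Sec16a (0.044) and Zfyve20 (0.048), and Igfbp6 to Hacl1 (0.025), Add3 (0.038) and Msl3 (0.041). Igfbp7 lay nearest to Grb14 (0.066), which encodes an adaptor that binds the insulin receptor, and then to Rras (0.092) and Tmem243 (0.093). Igfbp3 was nearest to Angpt2 (0.05), the gene of the TEK ligand angiopoietin-2, Prkch (0.063) and Acad12 (0.063). Angpt2 measured 16.2, 25.6 and 17.7 RPKM in the infant group and 32.8, 29.0 and 28.1 RPKM in the young adult group.

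The order of the levels changed with age. In infant replicates 1 and 3 it ran from Igfbp7 over Igfbp5, Igf1, Igfbp4, Igf1r and Igfbp3 to Igfbp6, and in infant replicate 2 Igf1 ranked below Igfbp4 and Igf1r. In young adult libraries Igfbp7 was followed by Igfbp4 and Igf1r, then by Igfbp3 and Igfbp5, whose ranges overlapped, and Igfbp6 and Igf1 came last. Within the infant group the ranges of Igfbp5 and Igf1 overlapped, as did those of Igf1 and Igfbp4.

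The 5 binding protein transcripts summed to 165.4, 257.4 and 169.5 RPKM in infant and to 161.7, 161.1 and 227.9 RPKM in the young adult group. Group means were 197.4 ± 52.0 and 183.6 ± 38.4 RPKM (SD, n = 3 each), a difference of -13.9 RPKM that lay within the spread between libraries and changed to 16.1 RPKM without infant replicate 2. Igfbp7 made up between 73.5% and 93.2% of the sum. Without Igfbp7 the sum was 43.8, 29.4 and 40.8 RPKM in the infant group and 17.5, 17.7 and 15.6 RPKM in the young adult group. Igfbp5 held 61%, 51.4% and 65.2% of this remainder in the infant group and 9.71%, 12.4% and 11.5% in the young adult group, while Igfbp4 held 36.3%, 39.8% and 31.4% and then 74.3%, 72.9% and 73.7%. The leading binding protein transcript after Igfbp7 was thus Igfbp5 in the 3 infant libraries and Igfbp4 in the 3 young adult libraries.

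**Figure D4:**
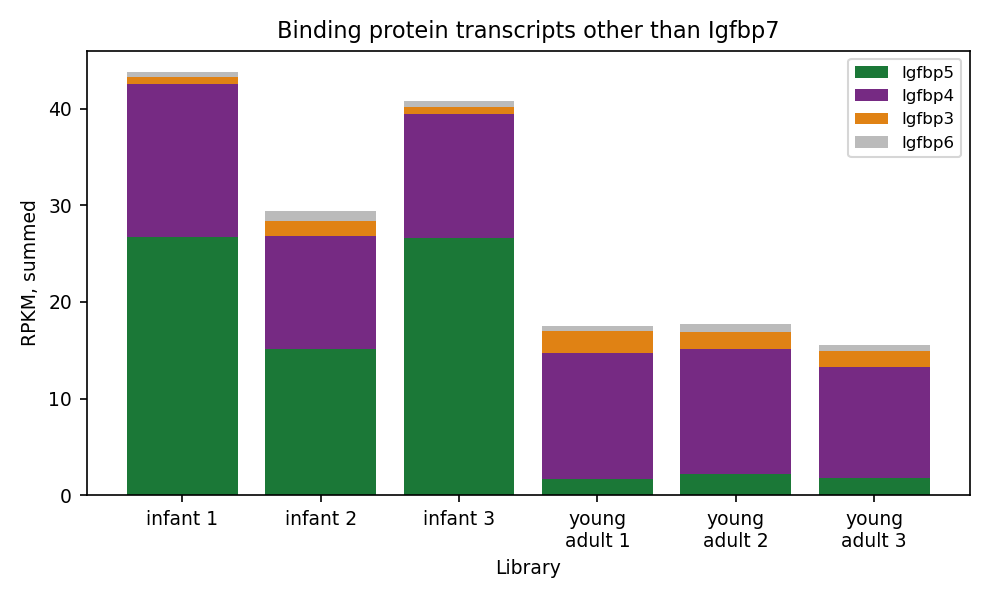
Summed RPKM of the binding protein transcripts other than Igfbp7 in each library, with 1 colour per gene. The bars are between 29.4 and 43.8 RPKM high in infant and between 15.6 and 17.7 RPKM in the young adult group, and the Igfbp4 part keeps its height.

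To ask whether other genes of the pathway moved, 60 further genes were taken by role, of which 45 had a row and were tested. Of these, 5 were called lower, Stc1, Irs1, Grb10 and Pik3r2 among them, and 0 higher, so that 11.1% were called, near the 11.4% of all genes. At an adjusted p under 0.05 with no fold threshold 10 of the 45 passed, against 25.5% of all genes tested. Their median log2 difference was -0.13, beside -0.07 for all genes. The count depended on single libraries: it was 1 without infant replicate 1 or young adult replicate 2, 2 without infant replicate 3 or young adult replicate 1 or 3, and 8 without infant replicate 2.

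Irs1, which encodes the adaptor that the activated IGF1 and insulin receptors phosphorylate, measured 13.2, 15.4 and 11.1 RPKM in the infant group and 4.2, 4.3 and 5.0 RPKM in the young adult group. The groups did not overlap. Its log2 difference of -1.36 ± 0.13 (SE) had a limma adjusted p of 0.00122, and Irs1 was called in all 6 fits without 1 library (-1.48 to -1.26). Infant replicate 2 was the highest infant library for Irs1, at 127% of the mean of replicates 1 and 3. Summed fibroblast markers were at 29.7% in the same comparison and mural markers at 29.4%. Summed endothelial markers were at 138%, leukocyte markers at 141% and epithelial markers at 151%. The part of any of these cell types in the fall of Irs1 was not tested.

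Grb10, an imprinted gene whose product binds and restrains the IGF1 and insulin receptors, measured 65.0, 19.4 and 48.7 RPKM in the infant group and 13.6, 15.2 and 11.9 RPKM in the young adult group (log2 difference -1.48 ± 0.38, limma adjusted p 0.028). Stc1, which encodes stanniocalcin-1, an inhibitor of the proteases that cleave IGFBP4, measured 26.0, 6.8 and 26.7 RPKM in the infant group and 4.7, 4.5 and 2.9 RPKM in the young adult group (-1.86 ± 0.46, limma adjusted p 0.0245). In both, infant replicate 2 lay close to the young adult values, and both were called in 1 of the 6 fits without 1 library, that without infant replicate 2. The protease gene Pappa2 measured 4.4, 0.2 and 2.9 RPKM in the infant group and 0.1 RPKM in each young adult library (-1.42 ± 0.49, limma adjusted p 0.0699) and was not called. Neither Pappa nor Stc2 had a row.

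Among the remaining ligands and receptors, Igf2, the fetal growth factor, was near the lower end of the table at 0.8, 0.5 and 1.2 RPKM in the infant group and 0.1, 0.3 and 0.2 RPKM in the young adult group (-0.60 ± 0.18, limma adjusted p 0.0493). Igf2r, whose product takes up and removes IGF2, measured 7.4, 5.2 and 6.6 RPKM and then 4.7, 4.1 and 3.7 RPKM (-0.51 ± 0.14, limma adjusted p 0.0336). Both were under the fold threshold, but with a pseudocount of 0.1 in place of 1 Igf2 was called lower (-1.62, limma adjusted p 0.0425). Over the alternatives that tested Igf2, its limma adjusted p ranged from 0.00773 to 0.614. Igf2 entered the test through infant replicate 3 alone, a library of the group where it was high. Without that library, or with the filter on mean RPKM, it was not tested. The insulin receptor gene Insr measured 2.4, 2.2 and 2.0 RPKM in the infant group and 2.7, 2.1 and 2.7 RPKM in the young adult group, which overlapped (0.13 ± 0.12, limma adjusted p 0.476).

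Downstream of the adaptors, 2 of 13 genes between PI3K and AKT were called, or 15.4%, near the 11.4% of all genes tested. Pik3r2, which encodes a regulatory subunit of PI3K, fell from 4.5, 2.4 and 2.2 RPKM to 0.8, 1.0 and 1.3 RPKM in the young adult group (log2 difference -0.95 ± 0.22, limma adjusted p 0.0198). Pik3r2 was called in 3 of the 6 fits without 1 library. Of the 8 mTOR genes none was called and 0 had an adjusted p under 0.05, with log2 differences between -0.32 for Eif4ebp1 and 0.26 for Rptor. The 6 genes from RAS to ERK lay between -0.13 and 0.36, and again 0 had an adjusted p under 0.05. The growth hormone receptor gene Ghr, whose signal induces Igf1 in liver, measured 55.7, 51.7 and 42.5 RPKM in the infant group and 51.2, 55.9 and 56.7 RPKM in the young adult group (0.13 ± 0.12, limma adjusted p 0.453). None of the 5 growth hormone genes was called.

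Proteins beyond the classical family carry a domain of the IGFBP type, and 13 such genes were listed, of which 9 were tested. Of the 9, 8 were called, 7 lower and 1 higher, beside 8.1% called lower and 3.33% called higher over all genes tested. Wisp1, Wisp2, Htra1 and Htra3 reached the filter of 1 RPKM in infant libraries only, so their entry rested on the group where they were high. With the filter on mean RPKM, Wisp2 and Htra3 were not tested, and 6 genes were called, 5 lower and 1 higher. The median log2 difference of the 9 was -1.20, beside -0.07 for all genes. Cyr61, whose product is a matricellular protein, fell from 152.9, 43.7 and 79.5 RPKM in infant to 20.5, 10.8 and 16.4 RPKM in the young adult group (-2.32 ± 0.42, limma adjusted p 0.00946). Its relatives Ctgf (-1.25), Wisp1 (-2.14) and Wisp2 (-1.04), the secreted protease genes Htra1 (-2.06) and Htra3 (-0.83) and Kazald1 (-1.20) were also called lower. Their order depended on the pseudocount: at 0.1 the log2 difference was -4.47 for Wisp1, -3.15 for Htra1 and -2.74 for Wisp2, against -2.39 for Cyr61. Htra1 measured 9.3, 0.9 and 9.2 RPKM in the infant group and 0.4 RPKM in each young adult library, and was called in 1 of the 6 fits without 1 library. Ctgf, Cyr61, Wisp1 and Htra1 are also known from fibroblasts and mural cells, whose summed markers fell between the groups, and their part in these counts was not tested.

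Crim1, which encodes a transmembrane protein that binds growth factors, was called higher. It measured 4.1, 4.6 and 5.3 RPKM in the infant group and 12.1, 10.0 and 8.0 RPKM in the young adult group (0.95 ± 0.15, limma adjusted p 0.00633) and was called in all 6 fits without 1 library, as was Cyr61. Esm1, the gene of the endothelial product endocan, was not called, at 5.0, 22.6 and 5.8 RPKM in the infant group and 11.6, 15.2 and 8.0 RPKM in the young adult group (0.31 ± 0.49, limma adjusted p 0.674). Without infant replicate 2 it was called higher (0.94, limma adjusted p 0.0155, with a range up to 0.965 over all alternatives). When 1 library was left out, the number called among the 9 was 9 without infant replicate 2, 4 without either of the other infant libraries, and 2, 3 and 5 without young adult replicates 1, 2 and 3. Without infant replicate 1, Htra3 fell under the filter and was not tested.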

How the data were processed

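Lung EC of C57BL/6N mice were sorted, and RNA was amplified with the SMARTer Ultra Low kit and sequenced as paired ends. The authors aligned reads to mm10 with STAR, counted on RefSeq genes and tested with DESeq2. The deposited table holds the authors' RPKM, rounded to 1 decimal, with 17241 transcript rows and 0 further value columns. The methods give an average transcriptome coverage over the libraries. The program behind the RPKM and the reads per library are not given in the sources used here, so no counting error was attached.

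For each gene the row with the highest mean RPKM was kept. Genes reaching an RPKM of 1 in any library were tested with limma 3.58.1 (R 4.3.3) on log2(RPKM + 1), with an intensity trend, a single age term and Benjamini-Hochberg adjustment over 12458 genes. The pseudocount understates changes of low genes. Filter and fold threshold (1.75) follow the study. The script was tested on simulated data for this comparison: of 200 genes among 12458 changed by 1.5 on the log2 scale, 91.5% were recovered, and 5 unchanged genes were called. The changed genes were drawn only from genes above a set mean of log2(RPKM + 1). Igf1, Igf1r, Igfbp3 and Igfbp6 lay under that mean, so the share recovered does not describe genes at their levels. Labels call the replicates independent.

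The genes and lists were chosen with earlier results of these data known. Named were all members, called list genes, a fixed set of list genes (Igf2, Igf2r, Insr, Irs1, Irs2, Grb10, Pappa, Stc1, Stc2, Esm1 and Htra1, where a row existed) and the 3 nearest patterns per member. Pappa2, Eif4ebp1, Rptor and Ghr were named after their values were seen. A called gene of the pathway list is counted but not reported here. Positions are RefSeq genes of GRCm38.p6, which shares coordinates with mm10. Alternatives were pseudocounts (0.1 and 5), filters, scalings, transcript rows, variance settings, a replicate block and leaving out each library.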

Additional observations from a re-analysis of the deposited data

How the results depend on the processing

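Igf1, Igfbp5 and Irs1 were called in all 20 alternative fits, with log2 differences from -4.60 to -1.62, from -3.48 to -1.98 and from -1.53 to -0.93. Of the 7 genes of the axis, 2 were called in every alternative but quantile normalization, which called 3 by adding Igfbp3. Igfbp6 was not tested without infant replicate 2 or with the filter on mean RPKM. Signs of Igfbp4, Igfbp6, Igfbp7, Esm1 and the summed binding proteins turned in some alternatives, and with all libraries as deposited none of the 4 genes was called. Igfbp4 turned to 0.04 when rescaled to the median. Igfbp6 turned to 0.40 under quantile normalization, 0.03 rescaled to the median and 0.06 with array weights. Igfbp7 turned to -0.01 under quantile normalization and rescaling without globin genes. With a pseudocount of 5 the test called 578 of all genes, 3 pathway genes and 3 IGFBP-domain genes, and with no fold threshold 3178 genes and 10 pathway genes. Quantile normalization called 3 pathway and 4 IGFBP-domain genes, and 532 genes higher and 610 lower against 415 and 1009 as deposited. Robust eBayes called 3 and array weights 8 pathway genes. Leaving out 1 library gave log2 differences of -0.18 to 0.02 for Igfbp4, -0.11 to 0.05 for Igfbp6, -0.09 to 0.39 for Igfbp7 and -0.05 to 0.94 for Esm1, and 846 to 1874 genes, 1 to 8 pathway genes, 2 to 9 IGFBP-domain genes and a difference of the summed binding proteins of -36.0 to 16.1 RPKM. The cause of these changes was not tested. Replicate numbers did not pair the libraries (correlations of deviations 0.0282, -0.1097 and -0.0210), and with a replicate block 1371 genes, 2 genes of the axis, 5 pathway genes and 7 IGFBP-domain genes were called, Kazald1 being lost. Reads per library are unknown, and levels under about 1 RPKM, as for Igfbp6, Igf2 and young adult Igf1, move in steps of 0.1 RPKM.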
